A study of Saccharomyces cerevisiae with 6 samples.

Results

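The genes described here encode the subunits that are particular to RNA polymerase III of the budding yeast Saccharomyces cerevisiae. A list of 10 such genes was matched by symbol to the probes of a barcode microarray, and the 6 genes with a value on at least 2 of the 6 arrays were kept, out of 670 such features in the whole series. These were RPC17, RPC34, RPC53, RPC82, RET1 and RPO31. RPC34 was valued on 4 arrays and the other 5 on all 6, while RPC11, RPC25, RPC31 and RPC37 had no value on any array. The genes were chosen by these counts of valued arrays and with measured differences between the pools in view, RPC17 being known as the strongest fall in the pools that lack nonsense-mediated decay. Differences from the YEL068C pool are therefore a description of these genes. Counts of threshold passes in that contrast are printed beside the share of all features and are no test of the genes, and the comparison of the 2 mutant pools is the one that the choice did not use.

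Each strain of the collection carries a DAmP allele, in which a cassette inserted behind the stop codon of a gene gives the mRNA a long 3' extension that holds the strain's barcode. Haploid strains of BY4742/BY4741 descent that carry such an allele were combined with 1 of 3 deletions by crossing, and each pool grew for 18 generations under G418 and nurseothricin. All 3 pools therefore share the DAmP alleles, the growth and both drugs, and differ in the deleted gene: YEL068C (the reference), NAM7 (also known as UPF1) or NMD2 (UPF2). Barcodes from RNA (Cy3) and from genomic DNA (Cy5) were hybridised together, with 2 arrays per pool. The second array repeated the procedure from the raw cell material, so the spread between arrays is technical, and each deletion is represented by 1 pool.

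RNA polymerase III makes transfer RNAs, the smallest ribosomal RNA and other short RNAs. RPO31 and RET1 are its largest subunits and form the catalytic core. RPC82, RPC34 and RPC31 form a subcomplex needed for initiation, RPC53 and RPC37 a subcomplex that acts in termination and reinitiation, and RPC17 and RPC25 the stalk, while RPC11 takes part in cleavage of the nascent RNA and in termination. NAM7 and NMD2 encode core factors of nonsense-mediated decay, which degrades mRNAs whose translation ends far from the normal 3' end, as on a DAmP mRNA.

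A value is the log2 ratio of RNA to DNA for a strain's barcode, with the median of each array set to 0 over the 444 features valued on all 6 arrays. Base 2 is an inference from how far the values spread. The direction of the deposited ratio is likely DNA over RNA, because 11 of 12 measured genes from a list of abundant mRNAs lay below 0 in the YEL068C pool in the deposited sign (median -3.49), so the sign was turned. With the other direction every "lower" below would read "higher". The arrays gave a value for 658 to 798 probes. None of the subunit genes lies on the chromosome of a deleted gene in the R64 annotation. The series text restricts interpretation to the barcodes called up tags. The files used here do not mark which probes read them, so a value may come from a tag outside that restriction. Of the probes on the array RPC53 had values for 2 of 4 and each of the other 5 genes for 1 of 2. The ratio cannot tell less RNA from more DNA signal of a strain.

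RPC17 had log2 ratios of 0.46 and 0.05 on the YEL068C arrays, -0.73 and -1.19 on the NAM7 arrays and -1.12 and -1.27 on the NMD2 arrays. All 4 mutant arrays lay below both YEL068C arrays. RPC53, read by 2 probes that differed by at most 0.09 on any array, had 0.16 and 0.19 for YEL068C, -0.06 and -0.01 for NAM7 and -0.44 and -0.30 for NMD2. Its 3 pools did not overlap, with the NAM7 pool between the others.

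RPC82 of the initiation subcomplex had 0.77 and 0.24 for YEL068C, 0.23 and -0.12 for NAM7 and 0.23 and -0.02 for NMD2. The lower YEL068C array, at 0.24, lay barely above the highest mutant arrays at 0.23. RPC34 had -0.64 and -0.08 for NAM7 and -0.62 and -0.26 for NMD2, and no value on either YEL068C array. It was 1 of 30 genes valued on all 4 mutant arrays and on neither YEL068C array, against 2 genes with the opposite pattern, so no difference from the reference can be computed for it.

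Of the core subunits, RET1 had 0.17 and 0.54 for YEL068C, -0.09 and 0.19 for NAM7 and -0.30 and 0.12 for NMD2. RPO31 had 0.79 and 1.60, then 0.53 and 0.92, then 0.54 and 0.81 in the same order of pools. For both genes the mutant arrays overlapped the YEL068C arrays.

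**Figure D1:**
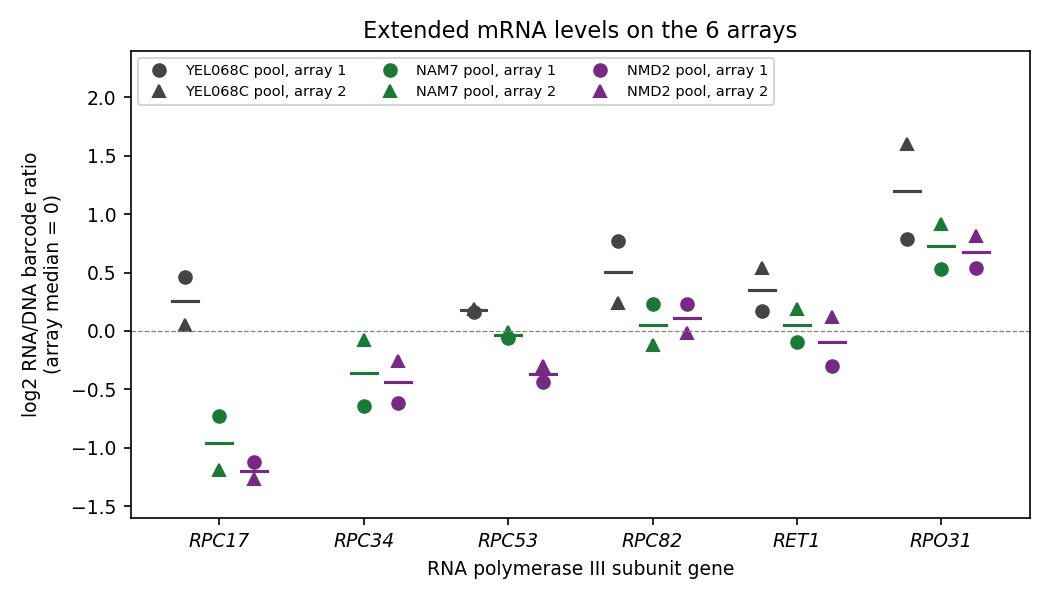
Log2 RNA/DNA barcode ratio (vertical axis, array median at 0) of the 6 subunit genes on each array, coloured by pool, with circles for array 1, triangles for array 2 and a bar at the pool mean. RPC17 is the gene whose mutant arrays, from -0.73 to -1.27, lie farthest below its YEL068C arrays, and RPC34 has no YEL068C value.

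In the YEL068C pool the 5 measured genes stood above the array median in the order RPO31 (1.20 ± 0.58, SD, n = 2 arrays), RPC82 (0.51 ± 0.37), RET1 (0.35 ± 0.26), RPC17 (0.26 ± 0.29) and RPC53 (0.18 ± 0.03). RPO31 exceeded 80.6% of features and RPC53 53.4%, or 19.1% and 45.9% if the ratio runs the other way. The arrays of RPC82, RET1, RPC17 and RPC53 overlapped from each gene to the next, so these neighbours could not be ordered, and the lower RPO31 array (0.79) stood just above the higher RPC82 array (0.77). Both dyes read the same barcode, whatever the length of the gene. Whether the ratio within a pool varies with coding length was not tested. The difference from the YEL068C pool does fall with length, as given below. Barcodes may also amplify unequally from RNA and DNA, which was not tested.

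In both mutant pools RPC17 was the lowest of the 6. It stood at -0.96 ± 0.32 in the NAM7 pool, above 25.7% of features, and at -1.20 ± 0.10 in the NMD2 pool, above 18.5%. In the YEL068C pool it was above 56.8%. With the ratio turned these shares would be 74.1%, 81.3% and 43.0%. RPO31 was the highest of the 6 in each pool, at 0.73 ± 0.28 in the NAM7 pool and 0.68 ± 0.19 in the NMD2 pool. In the NMD2 pool the order from the lowest was RPC17, RPC34 (-0.44 ± 0.25), RPC53 (-0.37 ± 0.10), RET1 (-0.09 ± 0.30), RPC82 (0.11 ± 0.18) and RPO31. From RPC34 to RPC82 the arrays of each gene overlapped or met those of the next, while RPC17 stood clear of RPC34 and RPO31 of RPC82. In the NAM7 pool RPC53 (-0.04 ± 0.04), RET1 (0.05 ± 0.19) and RPC82 (0.05 ± 0.25) overlapped, and both RPC34 arrays (-0.36 ± 0.39) lay below those of RPC53.

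The comparison with the YEL068C pool asks how each extended mRNA, relative to the array median, differs without nonsense-mediated decay. Since the strains all carry DAmP alleles, a change common to most of them is removed by the centring. Words such as "lower", "fell" and "rose" are therefore relative to the median feature. Each deposited column already had a median of 0, so omitting the centring does not lift this limit. Taking the mean of both mutant pools, RPC17 differed by -1.33 on the log2 scale (SE 0.24), a ratio of 0.396 to the reference and the second lowest difference of the 444 features. RPO31 differed by -0.49 (SE 0.30), RPC82 by -0.43 (SE 0.25), RPC53 by -0.38 (SE 0.19) and RET1 by -0.38 (SE 0.24). These other 4 differences lay closer to each other than their standard errors. The median of the 5 genes was -0.43 and that of all features -0.001. Only 5 of the 10 listed genes enter this median.

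RPC17 differed from the reference by -1.59 in the NMD2 pool and -1.19 in the NAM7 pool within arrays numbered 1, and by -1.32 and -1.24 within arrays numbered 2. RPC53 differed by -0.60 and -0.22 within arrays numbered 1 and by -0.49 and -0.20 within arrays numbered 2. RPO31 was the gene whose values depended most on the array number, at -0.25 and -0.26 for NMD2 and NAM7 within arrays numbered 1 against -0.80 and -0.68 within arrays numbered 2.

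The arrays of 3 genes, RPC17, RPC53 and RPC82, did not overlap between the mutant pools and the reference, against 19.8% of features on that side. By limma over all features without a term for the array number, RPC17 alone of the 5 genes passed a Benjamini-Hochberg threshold of 0.05 as lower in the mean of both pools, where 1.35% of features did, and 0 of the 5 passed when any 1 of the 6 arrays was left out. With the array number as a block all 5 passed as lower, where 30.2% of features did. With the block and 1 array left out 2 to 5 passed, the 2 being without either YEL068C array, where 20.7% to 29.1% of features did. In the NMD2 pool alone 0 passed without the block (0% of features) and 5 with it, against 25.5% of features lower. At an unadjusted p under 0.05 without the block there were 2 of the 5, against 99 of 444 features. In the NAM7 pool 0 passed without the block (0%) and 3 with it, RPC17, RPC82 and RPO31, against 25% of features lower. There 1 of the 5 had an unadjusted p under 0.05 without the block, against 91 of 444 features. For each of these pools fewer of the 5 passed with the block when either array of that pool was left out. Such a fit leaves 1 array in the pool, and the drop is not set against that of all features here. Because the genes were put forward with these differences known, nothing is read from these counts.

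**Figure D2:**
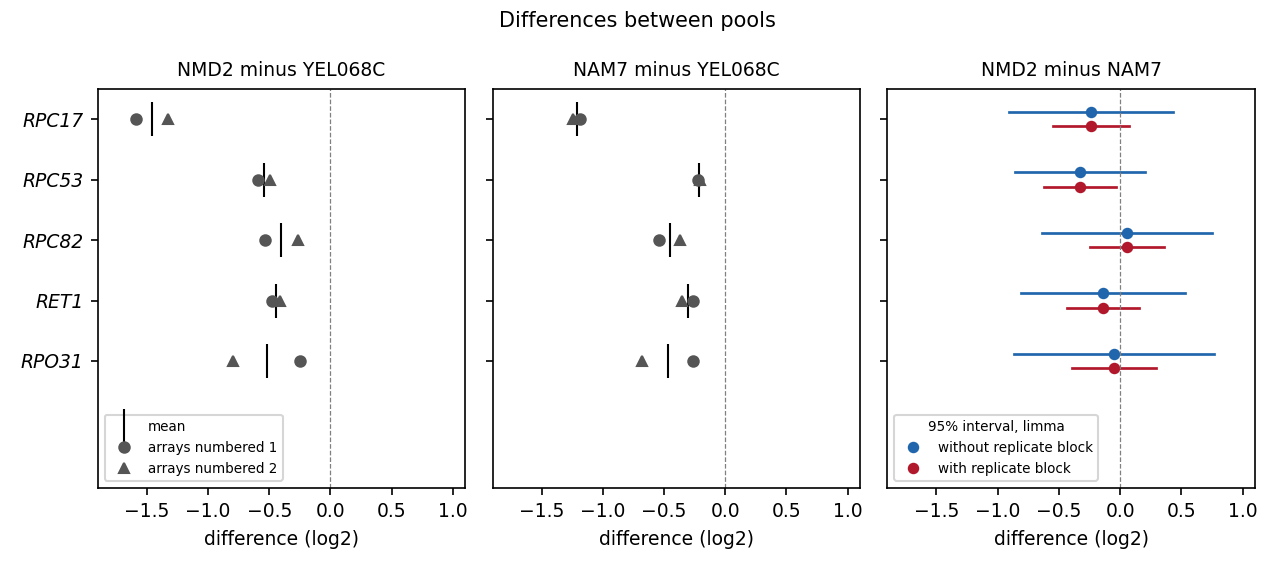
Difference in log2 ratio (horizontal axes) of the 5 genes valued on all arrays. The left and middle panels show each mutant pool minus the YEL068C pool within same-numbered arrays (circle for 1, triangle for 2) and their mean (bar), all below 0, with RPC17 lowest. The right panel shows NMD2 minus NAM7 with the 95% limma interval, where only that of RPC53 with the array number as a block leaves out 0, before adjustment.

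Coding length, taken as the gene's span in the R64 annotation, runs from 486 nucleotides in RPC17 to 4383 in RPO31. Over all genes of these arrays the difference from the reference falls with length. The median was 0.39 for the 10 genes of up to 500 nucleotides and -0.60 for the 52 genes over 3000. The subunit genes did not share one position against this trend. RPC17, which encodes 161 residues, was the lowest of the 10 genes in its class, at -1.72 from the class median. Since RPC17 was put forward for its fall, its place among genes of like length is a description. Of the genes next to it in length, the shorter SMD1 (441 nucleotides), PAM16 (450) and CKS1 (453) differed by 0.65, 1.0 and -0.09, and the longer SRP21 (504), YAH1 (519) and NCB2 (533) by 0.28, 1.07 and 0.69. SMD1 encodes a core spliceosomal protein, PAM16 a subunit of the mitochondrial import motor, CKS1 a partner of the cyclin-dependent kinase, SRP21 a subunit of the signal recognition particle, YAH1 the mitochondrial ferredoxin and NCB2 a repressor of TATA-binding protein. With the block SMD1, PAM16, YAH1 and NCB2 passed as higher, 4 of the 6, where 29.7% of features did. Without it YAH1 passed alone (adjusted p = 0.0454 in limma, against 4.05% of features in either direction), and it did not pass when any 1 array was left out (0.0909 to 0.268).

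RPC53, with 1269 nucleotides, stood at -0.63 from its class median and ranked 12 from the lowest of 109 genes. RPC82, with 1965, stood at -0.32 from its own, at rank 18 of 80. RET1, with 3450, and RPO31, with 4383, lay above the median of the genes over 3000 nucleotides, by 0.23 and 0.11, at ranks 45 and 34 of 52. When each array was centred within length classes in place of the whole array, RPC17 differed from the reference by -1.49, RPC53 by -0.52, RPC82 by -0.23, RPO31 by 0.02 and RET1 by 0.14. With the block and this centring, an alternative added after the data were seen, 2 of the 5 passed as lower, RPC17 and RPC53, where 16.2% of 433 features did. RPC82, RET1 and RPO31 did not pass in that setting.

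**Figure D3:**
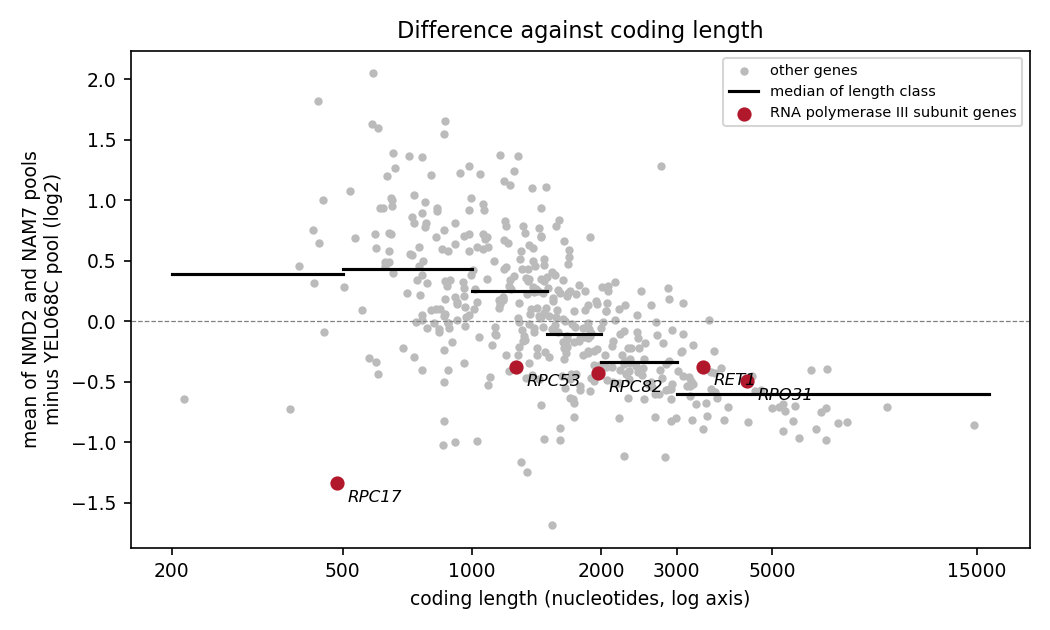
Mean difference of the NMD2 and NAM7 pools from the YEL068C pool (log2, vertical axis) against coding length in nucleotides (log axis) for the named genes valued on all 6 arrays, with black lines at the median of each length class. RPC17 lies at -1.72 from the median of the shortest class, whereas RET1 and RPO31 lie 0.23 and 0.11 above that of the longest.

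The direct comparison of the mutant pools was not used to choose the genes. It asks whether loss of NMD2 and of NAM7 leaves the extended mRNAs at the same level relative to the array median. By limma, 0 of the 5 genes passed without the block (0% of features) and 0 with it (0%). At an unadjusted p under 0.05 there were 0 of the 5 without the block, against 2 of 444 features. With the block there was 1 of the 5, against 55 of 444 features. RPC53 had the largest difference, being 0.33 lower in the NMD2 pool (-0.33, 95% interval -0.86 to 0.20, adjusted p = 1 in limma). With the block its interval was -0.62 to -0.04 (adjusted p = 0.366). It was the only one of the 5 whose NMD2 arrays both lay below both NAM7 arrays, where 8.33% of features did. Without the block RPC17 differed by -0.24 (-0.91 to 0.43), RET1 by -0.14 (-0.81 to 0.53), RPO31 by -0.05 (-0.87 to 0.77) and RPC82 by 0.06 (-0.64 to 0.75). With the block the intervals were -0.55 to 0.07 for RPC17, -0.44 to 0.16 for RET1, -0.39 to 0.29 for RPO31 and -0.25 to 0.36 for RPC82, all including 0. For RPC34, a fit of the 4 mutant arrays alone over 505 features, added after the data were seen, gave -0.08 (-0.86 to 0.71, adjusted p = 1 in limma), with an interval of -0.40 to 0.25 with the block.

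The array number moved the subunit genes in different directions. RPC17 was lower on array 2 than on array 1 in every pool, the shift being -0.41 for YEL068C, -0.46 for NAM7 and -0.15 for NMD2. RPC82 was lower on array 2 as well, with shifts of -0.52, -0.36 and -0.26 in the same order. RPO31 was higher on array 2 by 0.81, 0.39 and 0.26, RET1 by 0.36, 0.28 and 0.43, and RPC53 by 0.03, 0.06 and 0.14. RPC34 was higher by 0.55 and 0.36 in the NAM7 and NMD2 pools. Each of the 5 genes with values on all arrays moved one way in all 3 pools, as 74.5% of features did. The shift of RPO31 in the YEL068C pool, 0.81, exceeded its difference between pools (-0.49).

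The genes whose profile over the 6 arrays was nearest to that of RPC17, each gene taken about its own mean, were SUI3, REA1, POL2, CDC39 and ARP2. Their Euclidean distances from RPC17 were 0.54, 0.61, 0.62, 0.67 and 0.74, against a median of 1.83 over all features. SUI3 encodes a subunit of translation initiation factor eIF2, REA1 (also MDN1) a ribosome assembly ATPase, POL2 the catalytic subunit of DNA polymerase epsilon, CDC39 the scaffold of the CCR4-NOT complex and ARP2 a subunit of the actin-nucleating complex. Their coding lengths ran from 858 nucleotides in SUI3 to 14733 in REA1, all longer than RPC17. Their differences from the reference were -1.03 for SUI3, -0.86 for REA1, -0.98 for POL2, -0.89 for CDC39 and -1.16 for ARP2, each smaller in size than that of RPC17. Likeness to RPC17 chose these genes, so that they too were lower in the mutant pools follows from the choice and is no separate result.

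**Figure D4:**
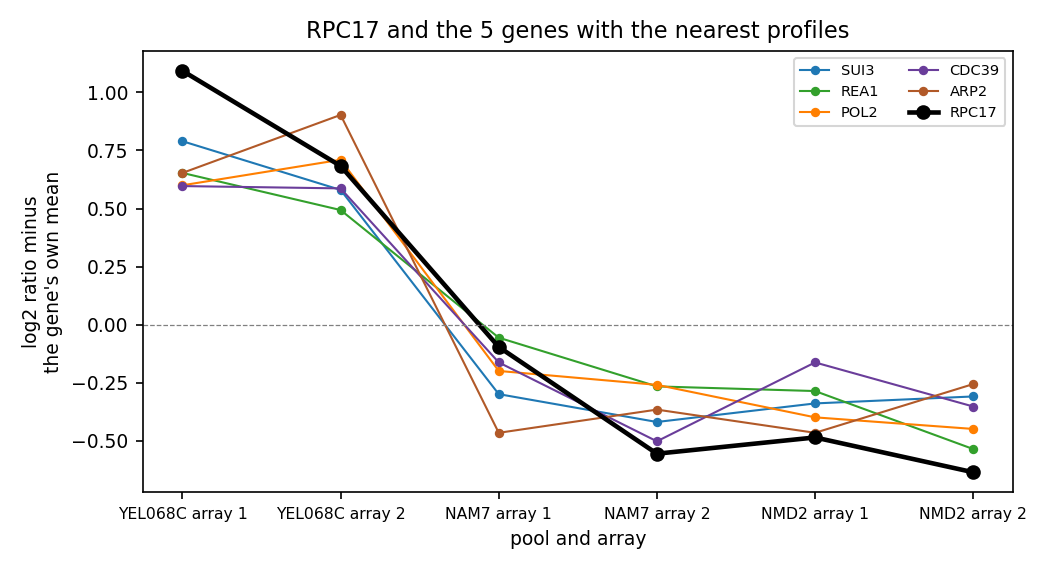
Log2 ratio minus each gene's own mean (vertical axis) on the 6 arrays for RPC17 (black) and the 5 genes nearest to it by Euclidean distance. All 6 are above their mean on both YEL068C arrays and below it on the 4 mutant arrays, as the choice by likeness fixes, and RPC17 has the widest range.

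RNA polymerase III shares further subunits with the other nuclear polymerases and works with the factors TFIIIA, TFIIIB and TFIIIC, and its transfer RNA products are trimmed by RNase P and other enzymes. Of 58 genes listed for these groups and for polymerases I and II, 21 were valued on all 6 arrays. Without the block 0 of the 21 passed in the mean of both mutant pools against YEL068C (limma, 4.05% of features). At an unadjusted p under 0.05 without the block there were 6 of the 21, against 118 of 444 features. With the block 9 fell and 5 rose, where 30.2% of features fell and 29.7% rose. With the block and centring within length classes 8 passed in either direction, where 41.3% of features did. Fewer passed with the block when 1 array was left out than with all arrays. Such a fit leaves 1 array in a pool, and nothing is read from that drop. The median difference of the 21 genes was -0.14.

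Among shared subunits, RPC40, common to polymerases I and III, rose by 0.42 with the block (SE 0.12, adjusted p = 0.00881 in limma). Its ratios of 1.83 and 1.75 for YEL068C lay below those for NAM7 (2.18 and 2.26) and NMD2 (2.12 and 2.31). RPB5, common to all 3 polymerases, rose by 0.72 (adjusted p = 0.000487), and RPB10, also common to all and with 213 nucleotides the shortest, fell by 0.64 (adjusted p = 0.0039). RPB10 had 5.19 and 5.64 in the YEL068C pool, the highest ratios of these genes, and 4.58 to 5.04 on the mutant arrays. RPC19, the partner of RPC40, had values on the 4 mutant arrays alone, from -0.07 to 0.87.

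The large core subunits of the other polymerases stood lower with the block. RPA190 of polymerase I fell by 0.72 (SE 0.12, adjusted p = 0.000255 in limma), RPA135 by 0.42 (adjusted p = 0.0105) and RPB2 of polymerase II by 0.42 (adjusted p = 0.0111). RPA135 and RPB2 are the counterparts of RET1, and RPA190 that of RPO31. RET1 differed by -0.38 and RPO31 by -0.49, and all 5 are over 3000 nucleotides long, a class whose median was -0.60. Whether the polymerase III counterparts differ from these 3 was not tested.

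Of the transcription factors of the polymerase III system, 0 of 5 measured genes passed with the block in limma, where 30.2% of features fell and 29.7% rose. At an unadjusted p under 0.05 with the block there were 0 of the 5, against 282 of 444 features. Without the block 0 passed as well, where 4.05% of features did. Differences of the 5 genes ran from -0.25 to 0.01. The largest were those of TFC4, the TFIIIC subunit that contacts TFIIIB (-0.25, SE 0.25 without the block), and of BDP1, a TFIIIB subunit (-0.14, SE 0.24 without the block). With the block these SEs were both 0.12. For TFC4 all arrays were low, with -1.5 and -1.06 for YEL068C and -1.31 to -1.75 on the mutant arrays, and the groups overlapped. Against the median of their length class TFC3, TFC4 and TFC6 stood higher by 0.61, 0.36 and 0.33. BDP1 and PZF1 stood at -0.03 and -0.255 from theirs. TFC3 ranked 51 from the lowest of 52 genes in its class.

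Of 10 genes of RNase P and tRNA maturation, 5 passed as lower with the block, against 30.2% of features, and 3 as higher, against 29.7%. With only 10 genes, neither count is read as differing from its background, which was not tested. The median difference of the 10 genes was -0.19. THG1, which adds a guanylate to tRNA-His, rose by 1.36 (SE 0.13, adjusted p = 4.18e-06 in limma). Its ratios were -1.73 and -0.80 for YEL068C, -0.25 and 0.19 for NAM7 and -0.11 and 0.55 for NMD2. SEN34 of the tRNA splicing endonuclease rose by 0.91 and TAD3 of the tRNA adenosine deaminase by 0.61, while POP1 of RNase P fell by 0.55, the tRNA methyltransferase subunit gene GCD10 by 0.48 and the tRNA ligase gene TRL1 by 0.45 (POP1 -0.55, GCD10 -0.48, TRL1 -0.45). The genes that rose span 714 to 1093 nucleotides and those that fell 1437 to 2628.

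**Figure D5:**
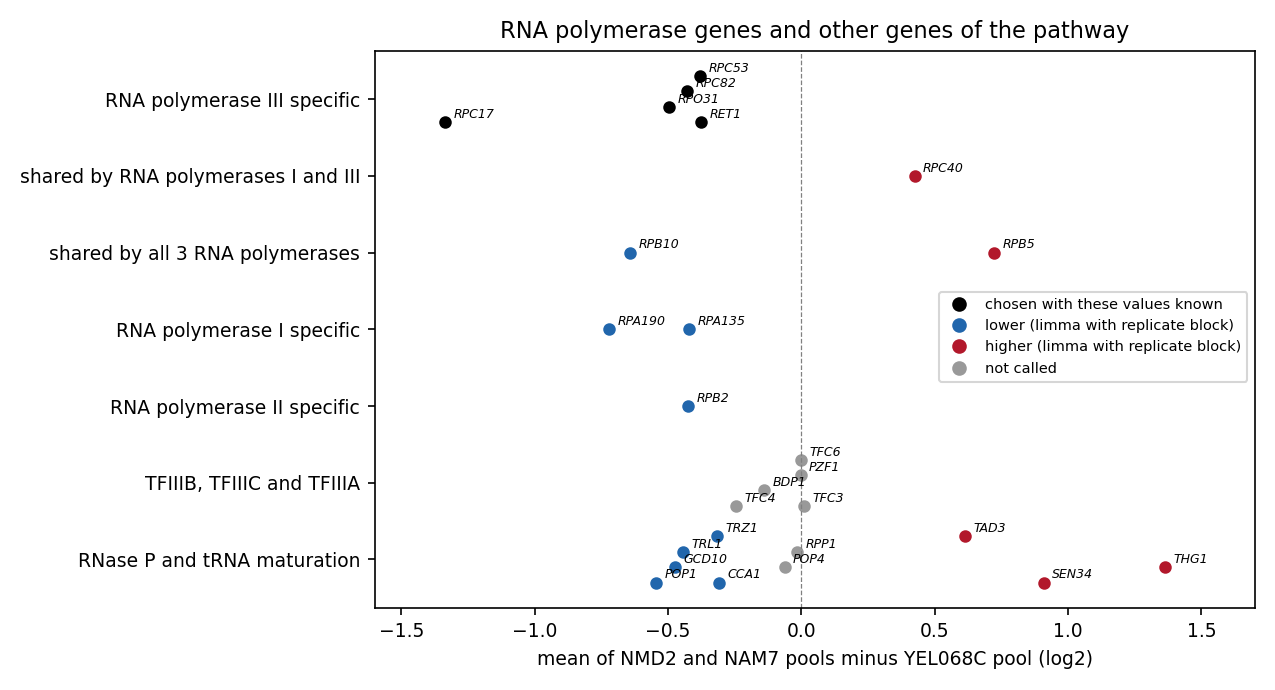
Mean difference of the NMD2 and NAM7 pools from the YEL068C pool (log2, horizontal axis) for the polymerase III subunit genes (black, chosen with these values known) and the other genes listed for the pathway, coloured by their limma call with the array number as a block. RPC40 and RPB5 lie above 0, the 5 transcription factor genes lie between -0.25 and 0.01, and RPC17 is the lowest of all.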

How the data were processed

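The authors deposited 1 table of processed values, read here as log2 ratios of the barcode signals of the 2 dyes, made from RNA and genomic DNA per the labels' protocols. It has 15743 probe rows, of which 527 had values on all 6 arrays. Each deposited column had a median of 0. The logarithm's base, the numerator, the filter and the scaling are unstated in the labels and the file. Scanner signals were not used here, and the number of arrays limits the precision. Probes for up and down tags were not distinguished.

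The platform table named 1 gene for 827 of the 843 probes with a value, several for 0 and none for 16. All 827 matched the RefSeq R64 table, whose spans include introns. Probes of a gene were averaged, the sign was turned and each array was centred on its median. Pools were compared with limma 3.58.1 in R 4.3.3 (lmFit, eBayes, two-sided), checked on simulated data. Same-numbered arrays deviated together (r = 0.891, 0.853 and 0.894 between pools). Sample titles give the numbers, so blocked values are given where they change a call that the text uses.

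Subunit genes, lists and tests were chosen with earlier results of these data known. Named were all subunit genes, from each pathway list the 3 largest passing differences each way (or the 2 largest), the 5 profiles nearest to RPC17 and the 3 genes next to it in length on each side. Alternatives were the replicate block, no centring, quantile normalization, a looser filter, single probes, length classes and leaving out each array. No sequence was printed.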

Additional observations from a re-analysis of the deposited data

How the results depend on the processing

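RPC17 stayed lower than the reference in the mean of both mutant pools under every alternative run, with differences from -1.54 to -1.13. It was put forward for this fall, and every alternative drew on the same arrays, with 1 pool per deletion. That RPC17 stayed lower is therefore a description and no separate result. Without the block the count of 1 subunit gene became 0 without centring, with features valued on at least 1 array per pool and without each single array. The call of YAH1 without the block was lost in the same settings (adjusted p = 0.0753, 0.0666 and 0.0909 to 0.268 in limma) and within length classes (0.154). With the replicate block 5 subunit genes passed in the mean of both pools, 5 for NMD2 and 3 for NAM7, and of the other pathway genes 14, 11 and 12. Over all features 30.2% passed as lower and 29.7% as higher in the mean of both pools. For NMD2 25.5% passed as lower and for NAM7 25%. With the block and centring within length classes 2, 2 and 1 subunit genes and 8, 7 and 8 others passed. There 16.2% of features passed as lower and 41.3% in either direction in the mean of both pools. Shares for the single pools in that setting are not given here. The median difference of the 5 subunit genes was -0.547 without centring and -0.235 within length classes. Over the fits with 1 array left out, without or with the block, 0 to 5 subunit genes passed in the mean of both pools, 0 to 5 for NMD2 and 0 to 2 for NAM7, the other pathway genes gave 0 to 11, 0 to 10 and 0 to 10, and the subunit median ran from -0.557 to -0.362. The lone array left in a pool was then assumed to vary like the others, so nothing is read from these counts. With the block, 20.7% to 29.1% of all features passed as lower in these fits in the mean of both pools. For NMD2 10.6% to 25.7% passed as lower and for NAM7 13.1% to 21.6%. In either direction the shares were 43.9% to 55.6%, 27.9% to 52.9% and 33.8% to 45.7% in the same order. Shares without the block are not given here for these fits. Between NMD2 and NAM7, 0 subunit or other pathway genes passed in any alternative, so the block changed no call there. The cause of these changes was not tested. Signal over background was not analysed here, so how far dim probes limit the values is unknown.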
